A study of Homo sapiens with 12 samples.

Results

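The genes described here are the receptors and ligands of vascular endothelial growth factor (VEGF) and the early regulators of blood and blood vessels. They are the receptors KDR, FLT1 and FLT4, the ligands VEGFA and VEGFC, the transcriptional regulators ETV2, TAL1, LMO2 and RUNX1, and the adhesion molecule PECAM1. These 10 genes were taken by symbol from the 35940 symbols of the count table, and each stands on 1 Ensembl identifier. All 10 passed the filter on low counts, as did 17047 genes in all, but TAL1, VEGFC and ETV2 were near the lower end of what was tested.

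The libraries came from ESI017 SOX2::mCitrine, 1 human embryonic stem cell line in which mCitrine reports SOX2, a transcription factor of pluripotent and neural cells. Colonies on micropatterns, adhesive areas of set shape, were held for 3 days in N2B27, a serum-free medium, with 200 ng/ml FGF8 plus WNT3A (100, 300 or 1000 ng/ml), and were then sorted into SOX2-negative and SOX2-positive cells. Control colonies of the same line spent 3 days in N2B27 alone, and the labels name no sorting gate for them, so sorting and treatment cannot be told apart in a comparison with control. There were 2 libraries for each gate at 100 and at 1000 ng/ml, 1 for each gate at 300 ng/ml and 2 for control, 12 in all. The second set was a biological repeat of the same line, so p-values refer to repeats of that line only. The spread was estimated over all groups and moderated across genes, so p-values also depend on libraries outside a comparison. The main fit did not pair the gates sorted from the same colonies.

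VEGFA is a secreted ligand that binds KDR (VEGFR2), the main signalling receptor of endothelial cells and an early marker of mesoderm that gives rise to vessels, blood and heart. FLT1 (VEGFR1) also binds VEGFA and can act as a decoy, while VEGFC acts mainly through FLT4 (VEGFR3), the receptor of lymphatic endothelium. ETV2 starts the endothelial and blood programme, TAL1 and LMO2 work in 1 DNA-binding complex in blood and endothelial precursors, RUNX1 is required for the emergence of blood stem cells from endothelium, and PECAM1 sits at endothelial cell junctions.

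The deposited values were estimated counts, with 16474856 to 28079048 in a library. Levels are given as CPM, counts per 1000000 of the library total after TMM, an adjustment of that total that aligns the bulk of genes between libraries. SOX2 itself stood at 1.86 to 5.99 CPM in the 5 SOX2-negative libraries, at 418 to 467 CPM in the 5 SOX2-positive libraries and at 652 and 676 CPM in control, which checks the gates. On the second principal component (16.3% of the variance) WNT3A 100 SOX2-negative replicate 2 lay at -48, and the other SOX2-negative libraries at -0.3 to 12.9. Without it FLT4 was also called between gates (log2 fold change -0.61, against -0.42 with it), and calls rose over all genes too. In these bulk samples, fewer cells of a type and less RNA per cell cannot be told apart.

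For KDR, FLT1 and RUNX1 the 250 bases upstream of the RefSeq start are shown, because the largest called differences between gates or from control were in these genes among those in the promoter table used here. That table (RefSeq, GRCh38.p14) matched 6 of the 10 genes. Both strands were searched for 8 short motifs chosen with the values of the genes known: TATAAA (the TATA box), GGGCGG (the GC box), TGACGTCA (the cyclic AMP response element, CRE), GGAAGT (an ETS family motif), AGATAA (a motif of the GATA factors), TGTGGT (a motif of the RUNX factors), ACGTG (the hypoxia element) and CTTTGA (a motif of the TCF and LEF factors). Each line runs 5′ to 3′ on the gene's strand, with motif matches in capitals. No match overlaps another in these windows.
KDR, chr4:55125596-55125845, minus strand: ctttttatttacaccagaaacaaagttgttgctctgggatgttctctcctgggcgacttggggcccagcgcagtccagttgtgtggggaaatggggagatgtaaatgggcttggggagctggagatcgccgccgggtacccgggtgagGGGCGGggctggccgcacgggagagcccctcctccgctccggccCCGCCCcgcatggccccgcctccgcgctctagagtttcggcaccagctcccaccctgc
FLT1, chr13:28495129-28495378, minus strand: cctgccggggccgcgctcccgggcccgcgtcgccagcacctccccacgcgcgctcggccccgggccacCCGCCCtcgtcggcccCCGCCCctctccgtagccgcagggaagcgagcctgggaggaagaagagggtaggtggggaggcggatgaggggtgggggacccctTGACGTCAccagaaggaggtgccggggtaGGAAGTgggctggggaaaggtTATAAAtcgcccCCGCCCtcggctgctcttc
RUNX1, chr21:34888700-34888949, minus strand: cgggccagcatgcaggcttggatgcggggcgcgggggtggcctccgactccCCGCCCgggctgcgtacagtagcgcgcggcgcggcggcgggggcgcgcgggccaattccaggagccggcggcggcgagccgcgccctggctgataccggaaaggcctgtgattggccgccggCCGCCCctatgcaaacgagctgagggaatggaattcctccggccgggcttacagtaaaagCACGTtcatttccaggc
The FLT1 window holds a TATA box 31 to 26 bases before the start, a motif found in 10.7% of all 35116 windows of this length. It also holds a CRE 81 to 74 bases before the start (1.65% of windows), an ETS match 52 to 47 bases before it (19.5%) and 3 GC boxes (at least 1 in 42.6%). Its last 17 bases lie inside the gene as GENCODE 29 draws it. The KDR window holds 2 GC boxes and none of the other 7 motifs. RUNX1 has 2 GC boxes and a hypoxia element 17 to 13 bases before the start (18.5% of windows), and its window lies within the GENCODE span of the gene, which has other starts. These matches describe letters in the windows and say nothing of binding.

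Averaged over 100 and 1000 ng/ml, VEGFA, RUNX1, LMO2 and PECAM1 were higher in SOX2-negative cells than in SOX2-positive cells, and KDR and FLT1 were lower. The test was edgeR's quasi-likelihood test with Benjamini-Hochberg adjustment over all 17047 genes, and a gene counts as called at an adjusted p under 0.05. The background was 24% of all genes called between the gates, 12.9% higher and 11.1% lower. Against it stand 4 higher and 2 lower of the 10 genes. Their median log2 fold change was 0.62, against 0.01 over all genes tested.

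**Figure D1:**
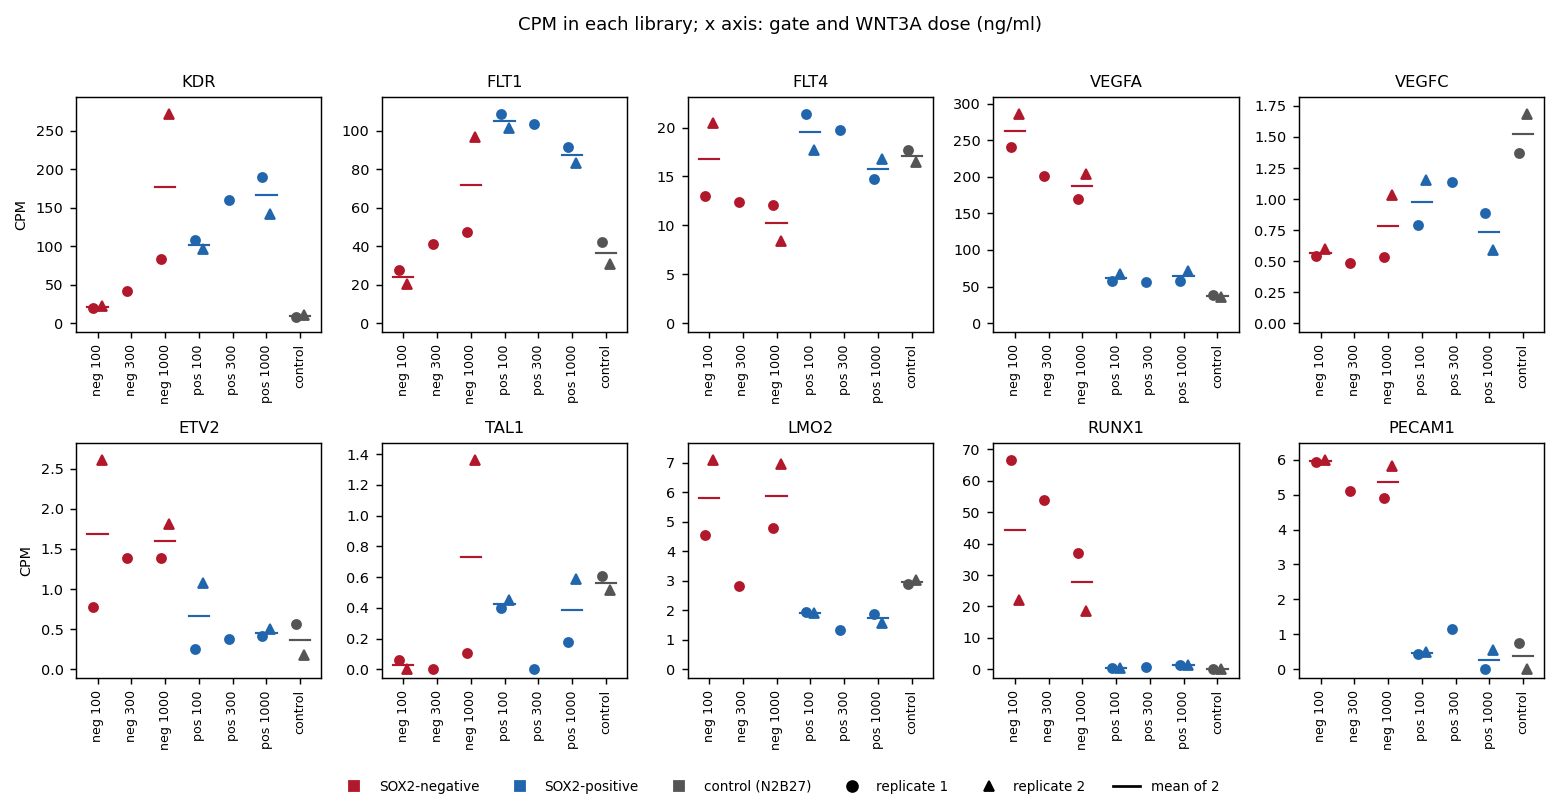
Level of each of the 10 genes (CPM) in the 12 libraries, with 1 point per library and SOX2-negative and SOX2-positive cells at 100, 300 and 1000 ng/ml WNT3A beside control. VEGFA and RUNX1 are higher in every SOX2-negative library than in any other, and KDR is lowest in the 2 control libraries.

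Among the ligands, VEGFA (ENSG00000112715, chromosome 6, 43770184 to 43786487, plus strand, GRCh38 as in GENCODE 29) was high in every SOX2-negative library. With WNT3A at 100 ng/ml there were 240.7 and 286 CPM in SOX2-negative cells, against 57.6 and 66.6 CPM in SOX2-positive cells. The single libraries at 300 ng/ml had 200.5 CPM in SOX2-negative cells and 56.3 CPM in SOX2-positive cells, and at 1000 ng/ml the values were 170.2 and 204 CPM against 57.0 and 70.9 CPM. Control had 38.7 and 35.7 CPM, below every treated library, and the gates did not overlap at any dose. The fold change between gates was 3.52 (log2 1.82 ± 0.15 SE, edgeR adjusted p = 1.39e-05) over both doses. The log2 fold change at 100 ng/ml was 2.08 ± 0.22 SE (edgeR adjusted p = 0.000166) and at 1000 ng/ml 1.55 ± 0.21 SE (edgeR adjusted p = 0.00102).

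Set against control, SOX2-negative cells had 7.07-fold more VEGFA at 100 ng/ml (edgeR adjusted p = 2.68e-05) and 5.03-fold more at 1000 ng/ml (edgeR adjusted p = 5.59e-05). All comparisons with control share its 2 libraries. In SOX2-positive cells VEGFA was above control by a log2 fold change of 0.74 at 100 ng/ml and 0.78 at 1000 ng/ml, which missed the threshold (edgeR adjusted p = 0.0826 and 0.0582). Both passed it with DESeq2 (adjusted p = 0.0131 and 0.00674), beside 1375 and 1614 of all genes, against 719 and 954 with edgeR. Both also passed without either WNT3A 100 SOX2-negative library (log2 0.74 and 0.78), though neither library is in these comparisons. Calls rose widely over all genes in those fits too, so these passes were not particular to VEGFA. An antisense gene overlaps 188 of the 14431 exonic bases of VEGFA, and with no stated strand the reads of the pair cannot be told apart within those bases.

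VEGFA is a known target of the hypoxia response, so the 12 genes of a list for that response, which leaves VEGFA out, were read beside it. Between gates the glucose transporter SLC2A3 was higher in SOX2-negative cells (log2 fold change 1.62, edgeR adjusted p = 1.23e-05). The glycolytic genes HK2 (2-fold lower) and PGK1 (log2 -0.82) and the pyruvate dehydrogenase kinase PDK1 (-0.62) were lower there, and the other 8 were not called. The background between gates was 24% of all genes called, 12.9% higher and 11.1% lower. The list median was -0.42, against 0.01 over all genes. PGK1 was no longer called once WNT3A 1000 SOX2-negative replicate 1 (edgeR adjusted p = 0.052) or WNT3A 1000 SOX2-positive replicate 2 (0.0588) was left out, and PDK1 lost it under 7 of the alternatives. The summed level of the list was 3122 to 4005 CPM in SOX2-negative libraries, 2523 to 3411 CPM in SOX2-positive libraries and 1064 to 1289 CPM in control. SLC2A3 made up much of the SOX2-negative sum: without it the other 11 genes summed to 1250 to 1940 CPM in SOX2-negative libraries, 1907 to 2743 CPM in SOX2-positive libraries and 820.3 to 965.5 CPM in control. The list's part in the VEGFA difference was not tested.

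VEGFC (ENSG00000150630, chromosome 4, 176683538 to 176792727, minus strand), the ligand of FLT4, stayed under 2 CPM in every library. Its range was 0.482 to 1.03 CPM in the 5 SOX2-negative libraries and 0.588 to 1.16 CPM in the 5 SOX2-positive libraries, against 1.37 and 1.68 CPM in control. The gates overlapped (log2 fold change -0.34, edgeR adjusted p = 0.682), and both lay below control.

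Of the further ligands, placental growth factor PGF, which binds FLT1, stood at 13.5 and 35.1 CPM in SOX2-negative cells at 100 ng/ml, against 3.82 and 1.53 CPM in SOX2-positive cells. Values at 1000 ng/ml were 16.0 and 15.4 CPM in SOX2-negative cells and 5.25 and 2.76 CPM in SOX2-positive cells, and control had 2.64 and 2.34 CPM. The log2 fold change between gates was 2.59 ± 0.38 SE (edgeR adjusted p = 0.000612). VEGFB, also a ligand of FLT1, was higher in SOX2-negative cells by a log2 fold change of 0.69 ± 0.23 SE (edgeR adjusted p = 0.0481). That call was lost in 15 of 18 alternatives, among them the replicate block (adjusted p = 0.0582) and limma-trend (0.0634), with adjusted p up to 0.168 when WNT3A 100 SOX2-positive replicate 2 was left out. VEGFD had at most 7 counts in a library and was not tested.

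The receptor KDR (ENSG00000128052, chromosome 4, 55078259 to 55125595, minus strand), whose upstream bases hold 2 GC boxes as shown, was low in control and higher in every treated library. SOX2-negative cells at 100 ng/ml had 20.05 and 22.5 CPM, against 108 and 96.2 CPM in SOX2-positive cells. The values at 300 ng/ml were 42.4 CPM in SOX2-negative cells and 159.9 CPM in SOX2-positive cells. Those at 1000 ng/ml were 82.8 and 271.5 CPM in SOX2-negative cells and 190.2 and 142 CPM in SOX2-positive cells, and control had 7.67 and 10.5 CPM. The gates were apart at 100 ng/ml and overlapped at 1000 ng/ml, where the SOX2-negative repeats held both the lowest and the highest value.

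Over both doses KDR was 2.12-fold lower in SOX2-negative cells (log2 fold change -1.08 ± 0.31 SE, edgeR adjusted p = 0.0259). Leaving out any of 3 SOX2-positive libraries ended the call, namely replicate 1 at 100 ng/ml (edgeR adjusted p = 0.0693), replicate 2 at 100 ng/ml (0.0579) and replicate 1 at 1000 ng/ml (0.0785). With single libraries left out, the log2 fold change ran from -1.65 to -0.79. KDR at 100 ng/ml alone was 4.80-fold lower in SOX2-negative cells (log2 -2.26 ± 0.45 SE, edgeR adjusted p = 0.00723). For 1000 ng/ml the log2 fold change was 0.09, with a 95% interval of -0.84 to 1.03 (edgeR adjusted p = 0.939).

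Against control, KDR was 11.2-fold higher in SOX2-positive cells at 100 ng/ml (log2 3.49 ± 0.47 SE, edgeR adjusted p = 0.00365) and 18.2-fold higher at 1000 ng/ml (4.19 ± 0.49, adjusted p = 0.00135). In SOX2-negative cells it was 19.5-fold higher than control at 1000 ng/ml (log2 4.28 ± 0.49 SE, edgeR adjusted p = 0.000194). In SOX2-negative cells at 100 ng/ml the log2 fold change over control was 1.23 and missed the threshold (edgeR adjusted p = 0.0767). It passed with DESeq2 (adjusted p = 0.0191) and with either SOX2-negative library of 1000 ng/ml left out (edgeR adjusted p = 0.00866 for replicate 1, 0.00874 for replicate 2). The call in SOX2-positive cells at 100 ng/ml was lost without control replicate 2 (edgeR adjusted p = 0.0514).

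FLT1 (ENSG00000102755, chromosome 13, 28300344 to 28495145, minus strand), the gene with the TATA box and CRE shown, followed the same order of gates at 100 ng/ml but began from a higher control level. SOX2-negative cells had 27.5 and 20.2 CPM at 100 ng/ml, against 109 and 102 CPM in SOX2-positive cells. The 300 ng/ml libraries had 41.0 CPM in SOX2-negative cells and 103 CPM in SOX2-positive cells. Values at 1000 ng/ml were 47.5 and 96.6 CPM in SOX2-negative cells and 91.8 and 83.4 CPM in SOX2-positive cells, and control had 42.1 and 30.8 CPM. SOX2-positive libraries were all above control, and SOX2-negative libraries at 100 ng/ml were below it. Those at 1000 ng/ml were above control (log2 0.99 ± 0.32 SE), a difference that missed the threshold (edgeR adjusted p = 0.0565). It passed with DESeq2 (adjusted p = 0.0177) and with only the compared groups fitted (edgeR adjusted p = 0.0443), where calls over all genes also rose.

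Averaged over both doses, FLT1 was 2.31-fold lower in SOX2-negative cells (log2 -1.21 ± 0.23 SE, edgeR adjusted p = 0.00289), and the call held in all 18 alternatives. The gap at 100 ng/ml was 4.41-fold (log2 -2.14 ± 0.33 SE, edgeR adjusted p = 0.00167), and at 1000 ng/ml the log2 fold change was -0.28, with a 95% interval of -0.97 to 0.41 (edgeR adjusted p = 0.68). SOX2-positive cells had 2.89-fold more FLT1 than control at 100 ng/ml (edgeR adjusted p = 0.0231) and 2.41-fold more at 1000 ng/ml (adjusted p = 0.0457). The call at 1000 ng/ml was lost with the replicate block (adjusted p = 0.0569). It was also lost with library totals and no TMM (adjusted p = 0.0512), with identifiers apart (0.0667) and without any 1 of the control or SOX2-positive libraries of the 100 and 1000 ng/ml groups (edgeR adjusted p = 0.0754 to 0.37). The call at 100 ng/ml was lost without control replicate 1 (edgeR adjusted p = 0.0922) or 2 (0.266) and without SOX2-positive replicate 1 (0.135) or 2 (0.103) of that dose.

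**Figure D2:**
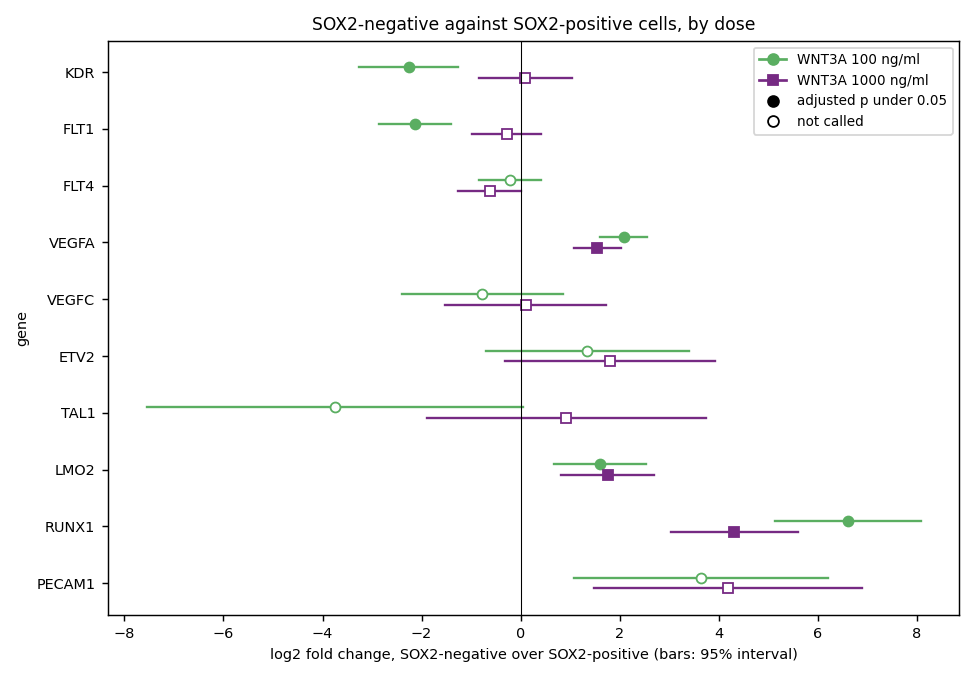
Log2 fold change of SOX2-negative over SOX2-positive cells for each gene at 100 and at 1000 ng/ml WNT3A, with bars for the 95% interval of the edgeR fit. KDR and FLT1 are below 0 at 100 ng/ml, at -2.26 and -2.14, and their intervals span 0 at 1000 ng/ml.

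FLT4 (ENSG00000037280, chromosome 5, 180601506 to 180649624, minus strand), the VEGFC receptor, had overlapping levels in the 2 gates and control. It ranged from 8.37 to 20.5 CPM in SOX2-negative libraries and from 14.7 to 21.4 CPM in SOX2-positive libraries, against 17.7 and 16.5 CPM in control. The gates overlapped, with a log2 fold change of -0.42 (edgeR adjusted p = 0.16). The library with 20.5 CPM was WNT3A 100 SOX2-negative replicate 2, and with it left out the difference was called (edgeR adjusted p = 0.035). SOX2-negative cells at 1000 ng/ml had the lowest levels, at 12.1 and 8.37 CPM, which missed the threshold against control (edgeR adjusted p = 0.105). That comparison passed without either WNT3A 100 SOX2-negative library (log2 -0.75 each), though neither is part of it. Calls rose widely over all genes in those fits.

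The neuropilins NRP1 and NRP2 are co-receptors that bind VEGF beside KDR and FLT4. NRP1 had 20.2 and 25.1 CPM in SOX2-negative cells at 100 ng/ml, 29.1 CPM at 300 ng/ml and 39.4 and 80.7 CPM at 1000 ng/ml. In SOX2-positive libraries it was 0.590 to 2.08 CPM, and control had 0.508 and 0.549 CPM. The gates did not overlap (log2 fold change 4.70 ± 0.37 SE, edgeR adjusted p = 1.01e-05), with NRP1 higher in SOX2-negative cells at 100 ng/ml, the dose at which KDR was lower in them.

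NRP2 had 9.34 and 12.5 CPM in SOX2-negative cells at 100 ng/ml, against 26.1 and 45.6 CPM in SOX2-positive cells. The single libraries at 300 ng/ml had 14.0 CPM in SOX2-negative cells and 20.2 CPM in SOX2-positive cells. Values at 1000 ng/ml were 25.4 and 60.8 CPM in SOX2-negative cells and 23.8 and 38.9 CPM in SOX2-positive cells, and control had 41.8 and 64.7 CPM. As with KDR and FLT1, the gates were apart at 100 ng/ml (log2 -1.71, edgeR adjusted p = 0.0273) and overlapped at 1000 ng/ml (0.46, adjusted p = 0.606), while NRP2 in control was as high as in any treated group. The call at 100 ng/ml ended when replicate 2 of the SOX2-negative (edgeR adjusted p = 0.0639) or of the SOX2-positive cells (0.214) at that dose was left out. Averaged over both doses NRP2 was not called (log2 -0.62, edgeR adjusted p = 0.175), but it was with the replicate block (adjusted p = 0.023) and without WNT3A 1000 SOX2-negative replicate 2 (0.0393). In this list of 5 further ligands and co-receptors, 3 of 4 tested were thus higher in SOX2-negative cells, as were 12.9% of all genes. The call of VEGFB, 1 of the 3, was lost in most alternatives. The list had a median log2 fold change of 1.64 against 0.01 over all genes.

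**Figure D3:**
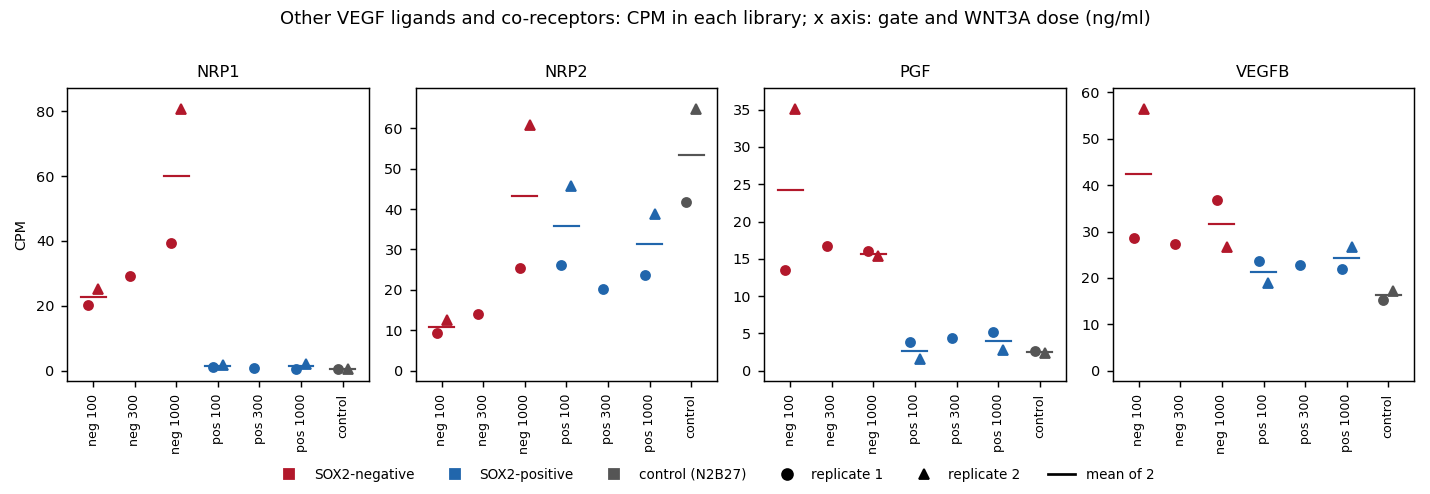
Level of NRP1, NRP2, PGF and VEGFB (CPM) in each of the 12 libraries, by gate, WNT3A dose and control. NRP1 is at 20.2 CPM or more in every SOX2-negative library and at 2.08 CPM or less in every other, while NRP2 is as high in control as in any treated group.

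Of the transcriptional regulators, RUNX1 (ENSG00000159216, chromosome 21, 34787801 to 36004667, minus strand) had the widest gap between gates among the 10 genes. SOX2-negative cells at 100 ng/ml had 66.6 and 22.05 CPM, against 0.397 and 0.495 CPM in SOX2-positive cells. The 300 ng/ml libraries had 54.0 CPM in SOX2-negative cells and 0.761 CPM in SOX2-positive cells. Values at 1000 ng/ml were 37.0 and 18.5 CPM in SOX2-negative cells and 1.42 and 1.36 CPM in SOX2-positive cells, and neither control library had a count. The SOX2-negative repeats of a dose differed widely, yet every SOX2-negative library was above every SOX2-positive one.

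The fold change of RUNX1 between gates was 44.1 (log2 5.46 ± 0.44 SE, edgeR adjusted p = 2.07e-05) over both doses. It was 6.60 ± 0.66 SE on the log2 scale at 100 ng/ml (edgeR adjusted p = 0.000206) and 4.32 ± 0.58 SE at 1000 ng/ml (adjusted p = 0.00121). Because control had no count, folds over it are lower bounds against 3 counts over both libraries, or 0.0638 CPM, which cover counting error only. They were at least 636-fold higher at 100, 846-fold at 300 and 416-fold at 1000 ng/ml in SOX2-negative cells. In SOX2-positive cells they were at least 7.05-fold, 11.9-fold and 21.7-fold higher at the same doses.

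RUNX1 was called above control in SOX2-negative cells at 100 ng/ml (edgeR adjusted p = 6.08e-05) and at 1000 ng/ml (7.29e-05). In SOX2-positive cells it was called at 1000 ng/ml (edgeR adjusted p = 0.0133), a call lost without control replicate 1 (0.0623), control replicate 2 (0.113) or WNT3A 1000 SOX2-positive replicate 1 (0.0549). SOX2-positive cells at 100 ng/ml missed the threshold (edgeR adjusted p = 0.0842) but passed with the replicate block (adjusted p = 0.0377) and with DESeq2 (0.00458). They also passed with either SOX2-negative library of that dose left out, though neither is in this comparison. Calls rose widely over all genes in those fits and with DESeq2, so these passes were not particular to RUNX1.

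LMO2 (ENSG00000135363, chromosome 11, 33858576 to 33892289, minus strand), the bridging protein of the TAL1 complex, was moderately higher in SOX2-negative cells. SOX2-negative cells at 100 ng/ml had 4.55 and 7.09 CPM, against 1.93 and 1.90 CPM in SOX2-positive cells. The 300 ng/ml libraries had 2.84 CPM in SOX2-negative cells and 1.33 CPM in SOX2-positive cells. Values at 1000 ng/ml were 4.79 and 6.97 CPM in SOX2-negative cells and 1.89 and 1.58 CPM in SOX2-positive cells, with 2.90 and 3.04 CPM in control. Control thus lay between the gates at 100 and 1000 ng/ml, and just above the SOX2-negative library at 300 ng/ml.

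LMO2 was called between gates over both doses (log2 fold change 1.68 ± 0.30 SE, edgeR adjusted p = 0.00209) in all 18 alternatives. The calls at single doses, 1.60 ± 0.42 SE at 100 ng/ml (edgeR adjusted p = 0.0264) and 1.76 ± 0.42 SE at 1000 ng/ml (0.0223), each depended on single libraries. The first was lost without SOX2-positive replicate 1 (edgeR adjusted p = 0.123) or 2 (0.171) or SOX2-negative replicate 2 (0.137) of that dose, and with only the compared groups fitted (0.0922). The second was lost without SOX2-positive replicate 1 (edgeR adjusted p = 0.0944) or 2 (0.156) or SOX2-negative replicate 2 (0.145) of its dose. Against control LMO2 was not called in any group. At 100 ng/ml SOX2-negative cells passed without their replicate 1 (log2 1.23), a fit in which calls rose widely over all genes.

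TAL1 (ENSG00000162367, chromosome 1, 47216290 to 47232220, minus strand) was close to 0 in most libraries. SOX2-negative cells had 0.0599 and 0 CPM at 100 ng/ml, 0 at 300 ng/ml, and 0.106 and 1.36 CPM at 1000 ng/ml, the last from 33 counts. SOX2-positive cells had 0.397 and 0.454 CPM at 100 ng/ml, 0 at 300 ng/ml, and 0.177 and 0.588 CPM at 1000 ng/ml, and control had 0.610 and 0.513 CPM. SOX2-negative cells at 100 ng/ml lay below the SOX2-positive cells of that dose and below control. Neither difference was called (log2 -3.75, edgeR adjusted p = 0.152, and -4.15, 0.112). Averaged over both doses, the gate difference was not detectable at this depth (log2 -1.41 ± 1.06 SE, edgeR adjusted p = 0.373). An antisense gene overlaps 845 exonic bases of TAL1, so the few reads may belong to either.

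ETV2 (ENSG00000105672, chromosome 19, 35641745 to 35644871, plus strand), the upstream ETS factor of the programme, was also low. It had 0.778 and 2.61 CPM in SOX2-negative cells at 100 ng/ml, 1.39 CPM at 300 ng/ml, and 1.38 and 1.81 CPM at 1000 ng/ml. SOX2-positive libraries had 0.248 to 1.07 CPM and control 0.559 and 0.183 CPM. The gates overlapped at 100 ng/ml, and the difference missed the threshold (log2 1.57 ± 0.67 SE, edgeR adjusted p = 0.116). With WNT3A 100 SOX2-negative replicate 1 left out it passed (log2 1.86), as did SOX2-negative cells at 100 ng/ml against control (2.81). Calls rose widely over all genes in that fit too.

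Partners of TAL1, LMO2 and RUNX1 were read as a list of 8 genes, of which 7 were tested. LYL1, a close relative of TAL1 that can take its place, stood at 2.27 to 3.72 CPM in SOX2-negative libraries, 0.0496 to 0.724 CPM in SOX2-positive libraries and 0.254 and 0.256 CPM in control (gate log2 fold change 3.00, edgeR adjusted p = 0.00371). GATA2, a blood stem cell factor, was higher in SOX2-negative cells than in SOX2-positive cells (1.96, adjusted p = 0.00013). Its highest library was a control, with 7.78 to 18.8 CPM in SOX2-negative libraries and 1.59 to 5.204 CPM in SOX2-positive libraries, against 20.6 and 13.9 CPM in control. CBFB, the binding partner of RUNX1, was higher in SOX2-negative cells (0.97, adjusted p = 0.000827), and the corepressor CBFA2T3 was lower (-1.73, adjusted p = 0.0059). The broadly expressed LDB1, TCF3 and TCF12 were not called, GATA1 had at most 5 counts in a library, and the list median was 0.01, as over all genes.

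PECAM1 (ENSG00000261371, chromosome 17, 64319415 to 64413776, minus strand) was low but apart between gates. SOX2-negative cells had 5.93 and 5.98 CPM at 100 ng/ml, 5.09 CPM at 300 ng/ml, and 4.89 and 5.81 CPM at 1000 ng/ml. SOX2-positive cells had 0.446 and 0.495 CPM at 100 ng/ml, 1.14 CPM at 300 ng/ml, and 0 and 0.543 CPM at 1000 ng/ml, and the control libraries had 0.762 and 0 CPM. The SOX2-negative libraries lay within a narrow band, all above every other library. The log2 fold change between gates was 3.91 ± 0.84 SE (edgeR adjusted p = 0.0067), and its call held in all 18 alternatives.

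Within a single dose PECAM1 missed the threshold between gates, at 100 ng/ml (log2 3.64 ± 1.16 SE, edgeR adjusted p = 0.0562) and at 1000 ng/ml (4.18 ± 1.22, 0.0521). DESeq2 (adjusted p = 0.00731 and 0.00276) and limma-trend (0.045 and 0.0181) called both. So did edgeR without control replicate 1 (0.0227 and 0.0174), without control replicate 2 (0.0222 and 0.017), without WNT3A 100 SOX2-negative replicate 1 (0.0445 and 0.0429) and without replicate 2 of WNT3A 1000 SOX2-positive (0.0374 and 0.0499). Leaving out replicate 1 of WNT3A 1000 SOX2-positive gave the call at 100 ng/ml (log2 3.625), and leaving out replicate 2 of WNT3A 100 SOX2-negative gave that at 1000 ng/ml (4.18). Calls between gates rose widely over all genes at 1000 ng/ml without either WNT3A 100 SOX2-negative library. At 100 ng/ml they did so without its replicate 1.

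Over control, PECAM1 was called in SOX2-negative cells at 100 ng/ml (log2 4.04 ± 1.199 SE, edgeR adjusted p = 0.0376) and at 1000 ng/ml (3.89 ± 1.19, 0.0464). The call at 1000 ng/ml was lost with the replicate block (adjusted p = 0.054) and with library totals and no TMM (0.0524), and that at 100 ng/ml with only the compared groups fitted (0.084). Both calls were lost with identifiers apart (0.0703 and 0.0875) and without control replicate 2 (0.132 and 0.171). The same held without replicate 1 (0.0541 and 0.0658) or 2 (0.0549 and 0.067) of the SOX2-positive cells at 100 ng/ml, and without replicate 1 (0.0565 and 0.101) or 2 (0.0589 and 0.14) of the SOX2-negative cells at 1000 ng/ml, all edgeR adjusted p. The call at 100 ng/ml was also lost once replicate 2 of its own SOX2-negative cells was left out (edgeR adjusted p = 0.0696).

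Of 22 endothelial genes beyond the 10, 19 were tested and 8 were higher in SOX2-negative cells, as were 12.9% of all genes. The list had a median log2 fold change of 0.50 against 0.01 over all genes. The calls were CDH5, TIE1, ESAM, SOX18, CD34, VWF, MMRN2 and NOS3. VWF, the clotting factor carrier of endothelium, stood at 389 and 700.5 CPM at 100 ng/ml and 249 and 295 CPM at 1000 ng/ml in SOX2-negative cells, against 4.07 to 26.97 CPM in SOX2-positive libraries and 98.6 and 126 CPM in control. CDH5 (VE-cadherin), the defining junction protein of endothelium, was at 2.69 to 3.70 CPM in SOX2-negative libraries, 0.0496 to 0.708 CPM in SOX2-positive libraries and 0.203 and 0 CPM in control (log2 3.27, edgeR adjusted p = 0.00513). SOX18, an endothelial transcription factor, had 6.97 to 24.9 CPM in SOX2-negative libraries, 0.412 to 1.34 CPM in SOX2-positive libraries and 0.102 and 0.366 CPM in control (4.18, adjusted p = 0.000201).

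Other endothelial genes did not follow. The angiopoietin receptor TEK was highest in control (57.6 and 36.8 CPM), with 4.19 to 17.1 CPM in SOX2-negative libraries and 11.8 to 22.5 CPM in SOX2-positive libraries (gate log2 -0.70, edgeR adjusted p = 0.122). The ETS factor ERG was also highest in control (2.795 and 1.501 CPM), with 0 to 0.851 CPM in SOX2-negative and 0.347 to 1.18 CPM in SOX2-positive libraries. The ETS factor FLI1 was near 0 in both gates (0 to 0.989 CPM in SOX2-negative libraries). Neither was called between gates (edgeR adjusted p = 0.456 and 0.633). Against control, SOX2-negative cells at 100 ng/ml had 6 of the 19 tested genes higher and 2, TEK and ERG, lower (background 11.9% higher and 8.66% lower). ROBO4, EMCN and ICAM2 had at most 12 counts in a library and were not tested. The summed level of the list was 366 to 922 CPM in SOX2-negative libraries, 89.3 to 97.7 CPM in SOX2-positive libraries and 212 to 228 CPM in control, and most of it in SOX2-negative cells was VWF.

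In a list of 16 blood genes 10 were tested, and the erythropoietin receptor EPOR was the 1 called, higher in SOX2-negative cells (log2 1.27, edgeR adjusted p = 0.000792). The background between gates was 24% of all genes called. Counts differed widely within the list. The pan-leukocyte PTPRC had at most 7 counts in a library, the myeloid factor SPI1 at most 10 and the embryonic globins HBE1 and HBZ at most 6 and 2. The platelet and early blood integrin ITGA2B stood at 12.1 to 26.6 CPM in SOX2-negative libraries, 18.6 to 27.6 CPM in SOX2-positive libraries and 16.6 and 14.3 CPM in control (gate log2 -0.32, edgeR adjusted p = 0.25). The erythroid factor NFE2 had 4.53 to 15.5 CPM in SOX2-negative libraries, 4.19 to 6.15 CPM in SOX2-positive libraries and 13.9 and 13.99 CPM in control (0.53, adjusted p = 0.153). MYB, a factor of blood progenitors, had 2.77 to 8.29 CPM in SOX2-negative libraries, 2.36 to 15.8 CPM in SOX2-positive libraries and 13.7 and 11.9 CPM in control (-0.53, adjusted p = 0.446). These 3 genes were thus counted in every group, control included, and did not pass between gates. The list summed to 90.4 to 149 CPM in SOX2-negative libraries, 51.2 to 82.6 CPM in SOX2-positive libraries and 61.1 to 67.3 CPM in control.

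Markers of other cell types moved with the gate, where 12.9% of all genes were called higher and 11.1% lower in SOX2-negative cells. Of 11 lateral and cardiac mesoderm genes, 10 were higher in SOX2-negative cells, among them NKX2-5 (log2 7.05) and ISL1 (6.21), regulators of heart precursors. All 10 definitive endoderm genes were higher there, among them SOX17 (7.12), GATA4 (6.62) and GATA6 (6.18). The mesoderm list summed to 106 to 451 CPM in SOX2-negative libraries, 11.3 to 26.5 CPM in SOX2-positive libraries and 75.7 to 93.0 CPM in control. The endoderm list summed to 1067 to 1953 CPM in SOX2-negative libraries, 24.8 to 87.2 CPM in SOX2-positive libraries and 60.2 to 60.3 CPM in control. All 6 pluripotency genes were lower in SOX2-negative cells, with sums of 393 to 834 CPM against 2385 to 3313 CPM in SOX2-positive libraries and 1556 to 1666 CPM in control. Of 5 neural progenitor genes tested 3 were lower (sums of 298 to 354 CPM in SOX2-negative, 337 to 381 CPM in SOX2-positive and 675 to 871 CPM in control libraries). SOX2, the gene of the sort, stands in the pluripotency list. The part of these cell types in the differences of the 10 genes was not tested.

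By single comparison, the 10 genes' counts of calls stood as follows. Between gates at 100 ng/ml 3 were higher and 2 lower in SOX2-negative cells, with a background of 16.2% of all genes called, 9.2% higher and 6.96% lower. At 1000 ng/ml 3 of the 10 were called, all higher (background 11.3%, 6.35% higher and 4.92% lower). Over control, SOX2-negative cells had 3 called at 100 ng/ml, all higher (background 20.6%, 11.9% higher and 8.66% lower), and 4 at 1000 ng/ml, all higher (17.8%, 10.7% higher and 7.1% lower). SOX2-positive cells had KDR and FLT1, 2 of the 10, called higher than control at 100 ng/ml (background 4.22%, 2.69% higher and 1.53% lower). At 1000 ng/ml they had 3 called, all higher, KDR, FLT1 and RUNX1 (background 5.6%, 3.63% higher and 1.97% lower). KDR was called over control in 3 of these 4 comparisons and VEGFA in the 2 with SOX2-negative cells.

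**Figure D4:**
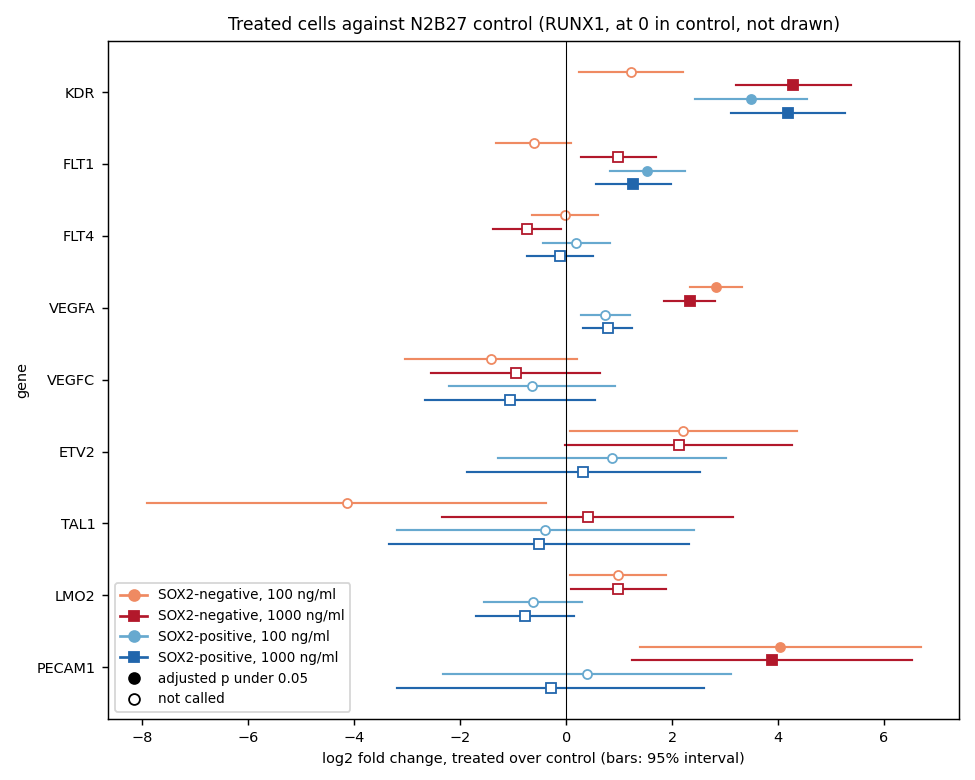
Log2 fold change over control for 9 of the 10 genes in SOX2-negative and SOX2-positive cells at 100 and 1000 ng/ml WNT3A, with bars for the 95% interval of the edgeR fit. RUNX1 is not drawn because control had no count. KDR lies at 3.49 or more in 3 of the 4 groups and at 1.23 in SOX2-negative cells at 100 ng/ml.

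The dose comparison set 1000 against 100 ng/ml within a gate. In SOX2-negative cells 0 of the 10 genes passed with edgeR, as 0 of 17047 genes did (background 0%). An unadjusted p under 0.05 was reached by 5 of the 10, beside 3107 of all 17047 genes. DESeq2 called 2 of the 10, beside 411 of all genes, and limma-trend called 0, beside 0 of all genes. KDR had the lowest p: 82.8 and 271.5 CPM at 1000 ng/ml against 20.05 and 22.5 CPM at 100 ng/ml, with 42.4 CPM at 300 ng/ml (log2 3.06 ± 0.46 SE, unadjusted p = 4.52e-05, edgeR adjusted p = 0.0969). It passed with DESeq2 (adjusted p = 2.13e-09). It also passed with replicate 1 of the SOX2-negative cells left out at 100 ng/ml (log2 2.99) or at 1000 ng/ml (3.68). With no filter on low counts KDR (edgeR adjusted p = 1.75e-23) and FLT1 (1.64e-06) passed too, beside 1551 of 22837 genes. The libraries were the same and the KDR log2 fold change stayed at 3.06. These p-values thus moved with the filter and cannot be read as the spread between repeats. FLT1 differed by 1.60 on the log2 scale (edgeR adjusted p = 0.161, DESeq2 0.000611). It passed once WNT3A 100 SOX2-negative replicate 1 was left out (log2 1.85), as did FLT4 (-0.99) and VEGFA (-0.60). Calls rose widely over all genes in that fit, so these passes were not particular to the 10 genes. Its only SOX2-negative library at 100 ng/ml was replicate 2, the one apart on the second principal component. With replicate 2 left out instead, these genes did not pass. VEGFA ran the other way, lower at 1000 ng/ml by 0.49 on the log2 scale.

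In SOX2-positive cells the dose comparison called 0 of the 10 genes with edgeR (background 0%). An unadjusted p under 0.05 was reached by 1 of the 10, beside 293 of all genes. DESeq2 called 0 of the 10, beside 5 of all genes, and limma-trend called 0, beside 0 of all genes. KDR differed by 0.70 on the log2 scale there (edgeR adjusted p = 1). For the difference of the dose effect between gates, edgeR, DESeq2 and limma-trend each called 0 of the 10 genes. Over all genes the background was 0% with edgeR, while DESeq2 called 16 and limma-trend 0. Beside 1349 of all genes, 3 of the 10 had an unadjusted p under 0.05. In edgeR these were KDR (log2 difference 2.36 ± 0.61 SE, unadjusted 0.00288), FLT1 (1.86 ± 0.45, unadjusted 0.00177) and RUNX1 (-2.29, unadjusted 0.0211), all with edgeR adjusted p = 0.525. Without WNT3A 100 SOX2-negative replicate 1, KDR (log2 difference 2.29) and FLT1 (2.11) passed, and calls rose widely over all genes too. With no filter on low counts and all 12 libraries, KDR (edgeR adjusted p = 4.98e-07), FLT1 (0.000486) and RUNX1 (0.00641) passed as well, beside 308 of 22837 genes. The call thus depended on the filter, and for KDR and FLT1 also on that library.

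Levels of different genes were set side by side per kb of exonic length, the union of all GENCODE 29 exons of a gene. For VEGFA that union (14431 bases) covers most of the gene, and for KDR it is 6563 bases, so the place of VEGFA in the order holds for this length only. In SOX2-negative cells at 100 ng/ml VEGFA was highest, at 18.2 CPM per kb, and KDR followed at 3.24 CPM per kb. In SOX2-negative cells at 1000 ng/ml KDR averaged 26.98 and VEGFA 13.0 CPM per kb, with KDR repeats far apart as given. In SOX2-positive cells the order was KDR, FLT1, VEGFA at 100 ng/ml (15.6, 8.37 and 4.30 CPM per kb) and at 1000 ng/ml (25.3, 6.97 and 4.43 CPM per kb). In control FLT1 (2.90), VEGFA (2.58), FLT4 (1.93) and KDR (1.38 CPM per kb) stood close together.

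The genes whose pattern over the 12 libraries was most like that of KDR, by the root mean square difference of centred log2 CPM, were HEY2 (0.72), NFIA (0.75) and APOBEC3D (0.80), where the median over all genes was 1.70. For VEGFA they were EFEMP2 (0.21), ATP6V1FNB (0.225) and AC080038.1 (0.24), with a median of 1.13. For RUNX1 they were LHX1 (0.48), EVX1 (0.53) and GATA6 (0.74), with a median of 3.36. HEY2, a Notch target of heart and artery, had 5.63 and 4.57 CPM in SOX2-negative cells at 100 ng/ml and 11.01 and 14.9 CPM at 1000 ng/ml, against 1.17 and 0.989 CPM in control. SOX2-positive cells had 7.79 and 5.525 CPM at 100 ng/ml and 18.5 and 8.87 CPM at 1000 ng/ml. The gates thus overlapped for HEY2 at 100 ng/ml, where they were apart for KDR. All libraries share the 2 gates and 4 media, so this likeness is a description.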

How the data were processed

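RNA was measured in 12 libraries of ESI017 SOX2::mCitrine. Per the labels' protocols, poly-A RNA was primed with random hexamers for cDNA and read as paired ends. The counting strand is not given in the sources used here. The authors deposited 1 table of estimated counts per gene, unscaled between libraries. Per the submitters' processing notes the tool was Salmon and the build GRCh38, with no version of Salmon.

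Rows of a symbol were summed (1034 of 35940 symbols have several identifiers) and estimated counts rounded. edgeR 4.0.16 in R 4.3.3 was run with TMM, a filter on low counts (filterByExpr on the groups, minimum count 10 and minimum total 15) and the two-sided quasi-likelihood test, adjusted over 17047 genes at a threshold of 0.05. The model had 7 group means, 5 residual degrees of freedom and a prior of 5.61. The 300 ng/ml libraries, 1 per gate, entered the fit but no main comparison. Alternatives were DESeq2 1.42.0, limma-trend (limma 3.58.1), library totals without TMM, no filter, identifiers apart, only the compared groups, the 3 doses averaged, a replicate block and each replicate left out, where the lone library of a group is taken to vary like the other groups.

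The series description gives the second set as a biological repeat, and the 2 gates of each treated set were sorted from shared colonies. As a check of pairing, deviations of same-numbered libraries correlated at -0.06 to 0.223 across genes over 10 pairs of groups. Replicates differed by more than sampling noise (chi-square per degree of freedom 21.9 to 136). Coordinates are GENCODE 29, and floors are 3 counts.

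The 10 genes and the lists were chosen with earlier results of these data known. All 10 genes, the further VEGF genes, up to 4 called genes per list and direction with the largest change, and the 3 genes most like KDR and the 2 genes with the lowest adjusted p between gates were to be named. TIE1, CD34, MMRN2, NOS3, TEK, ERG, FLI1, LDB1, TCF3, TCF12, ITGA2B, NFE2, MYB and the untested genes were named after their values were seen.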

Additional observations from a re-analysis of the deposited data

Results flagged for a closer look

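FLT1 at 100 ng/ml was singled out because every SOX2-negative library (27.5 and 20.2 CPM) lay below control and every SOX2-positive library (109 and 102 CPM) above it (42.1 and 30.8 CPM in control), with an edgeR adjusted p of 0.00167 between gates. LMO2 was singled out for the opposite order, with SOX2-negative libraries above and SOX2-positive libraries below control, at 100 ng/ml (edgeR adjusted p = 0.0264) and at 1000 ng/ml (edgeR adjusted p = 0.0223). At 300 ng/ml the SOX2-negative library, at 2.84 CPM, was just below the control libraries, at 2.90 and 3.04 CPM. Of the departures from control on the SOX2-negative side, neither FLT1 nor LMO2 at 100 ng/ml was called (edgeR adjusted p = 0.198 and 0.118).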

How the results depend on the processing

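None of the 10 genes changed the direction of a called difference under any alternative, and no scaling moved the median of all genes by more than 0.1 (log2). With DESeq2, SOX2-positive cells at 100 ng/ml had 4 of the 10 genes called over control (2 with edgeR), and SOX2-negative cells 2 between doses (0). With no filter, 2 were called between doses in SOX2-negative cells (0) and 3 for the dose effect between gates (0). With each replicate left out, the counts of calls were 5 to 7 between gates, 4 to 6 at 100 and 2 to 4 at 1000 ng/ml. Over control they were 2 to 5 and 3 to 6 in SOX2-negative cells at 100 and 1000 ng/ml, and 0 to 4 and 1 to 4 in SOX2-positive cells. Between doses they were 0 to 4 in SOX2-negative cells, and for the dose effect between gates 0 to 2. The cause was not tested. The replicate block, which models the pairing of same-numbered libraries, gave 6 calls between gates, 5 at 100 and 3 at 1000 ng/ml. Over control it gave 3 and 3 in SOX2-negative cells and 3 and 2 in SOX2-positive cells. Among all 17047 genes it gave 4106, 2737 and 1917 calls for the same gate comparisons. Over control these were 3499 and 3041 in SOX2-negative cells and 826 and 1045 in SOX2-positive cells. The block moved 3 of the 10 genes, named next, across the threshold. It moved PECAM1, FLT1 and RUNX1 over control and the further genes VEGFB and NRP2 between gates across the threshold, as given, and no other call of the 10 genes.

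Over all genes, left-out replicates gave 2638 to 6835 calls between gates (4085 with all), 928 to 7006 at 100 ng/ml (2755) and 935 to 2999 at 1000 ng/ml (1921). Over control they gave 1410 to 6993 (3514) and 1397 to 4675 (3028) in SOX2-negative cells, and 85 to 1508 (719) and 128 to 1803 (954) in SOX2-positive cells. Between doses in SOX2-negative cells they gave 0 to 5739 (0), and for the dose effect between gates 0 to 3795 (0). Fitting only the compared groups gave 1325 at 100 ng/ml between gates, 1798 in SOX2-negative cells over control at 100 ng/ml, and 2841 (100 ng/ml) and 2188 (1000 ng/ml) in SOX2-positive cells over control. No filter gave 4379 at 100 ng/ml between gates, 1608 and 1799 in SOX2-positive cells over control, and 1551, 107 and 308 for the doses in SOX2-negative cells, in SOX2-positive cells and between gates. DESeq2 gave 1375 and 1614 in SOX2-positive cells over control, and 411, 5 and 16 for those 3 dose comparisons. For the doses in SOX2-negative cells the replicate block and the compared groups alone each gave 1. At this depth TAL1, VEGFC and ETV2, under 3 CPM in every library, limit what a difference can show.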
